A study of Homo sapiens with 12 samples.

Results

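The apolipoprotein genes APOA1, APOA2, APOA5, APOB, APOC1, APOC2, APOC3, APOE, APOH and APOM were taken as a named set. Their symbols were matched to the Ensembl gene identifiers of the deposited expression table. All 10 were found among 60664 identifiers. RNA sequencing had been run on the human hepatoma lines Huh-7 and MHCC-97H, each transfected with a small interfering RNA against CENPU, a centromere protein (si-CENPU), or with the control si-NC. The 4 groups were Huh-7 si-CENPU, Huh-7 si-NC, MHCC-97H si-CENPU and MHCC-97H si-NC, with 3 samples in each. The genotype label of the si-CENPU groups is CENPU knockdown and that of the si-NC groups is WT. Cells of all groups were cultured in DMEM containing fetal bovine serum. Nothing in the labels says that the samples of a group were separate cultures, and a p-value here may therefore reflect technical spread only. The sequence, dose and time of the small interfering RNA are not in the labels.

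Apolipoproteins are the protein coat of the particles that carry lipid in plasma. The liver is their main source, with the intestine as the other large one. APOB is the non-exchangeable scaffold of very-low-density and low-density lipoprotein. It is loaded with lipid in the endoplasmic reticulum by microsomal triglyceride transfer protein (MTTP). APOA1 and APOA2 are the major proteins of high-density lipoprotein, and APOA1 also activates lecithin-cholesterol acyltransferase. The small exchangeable apolipoproteins act on lipoprotein lipase: APOC2 is its cofactor, APOC3 and APOC1 oppose it or slow the uptake of particles, and APOA5 promotes triglyceride clearance. APOE is a ligand of the low-density lipoprotein receptor family, APOM carries sphingosine-1-phosphate on high-density lipoprotein, and APOH (beta-2-glycoprotein I) binds phospholipids. Several of these genes lie in 2 clusters, one on chromosome 11 and one on chromosome 19, and nuclear receptors and other hepatocyte transcription factors, HNF4A among them, are known to act on them.

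Promoter windows of 300 bases, with 250 before and 50 after a transcription start, were taken from RefSeq on GRCh38.p14. The table held 10 such windows for 7 of the members. APOA1, APOB and APOC3 had no entry. APOE had 3 windows and APOA5 had 2, and for each the first listed is shown. The 4 windows below are shown because they come from members of the 2 clusters that stood at very different levels in Huh-7 cells: APOE and APOC2 were abundant there, APOC1 and APOA5 were not. Each is written 5′ to 3′ on the gene's own strand, and capitals mark the motifs that are reported. APOE lies at chr19:44905546-44905845 (plus strand), APOC1 at chr19:44914422-44914721 (plus strand), APOC2 at chr19:44945801-44946100 (plus strand) and APOA5 at chr11:116792371-116792670 (minus strand).
APOE: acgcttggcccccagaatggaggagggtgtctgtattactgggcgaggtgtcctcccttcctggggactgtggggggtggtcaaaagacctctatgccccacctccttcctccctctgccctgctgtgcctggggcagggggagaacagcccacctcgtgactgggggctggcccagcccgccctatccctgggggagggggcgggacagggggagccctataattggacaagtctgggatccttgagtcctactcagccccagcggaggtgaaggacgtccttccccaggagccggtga
APOC1: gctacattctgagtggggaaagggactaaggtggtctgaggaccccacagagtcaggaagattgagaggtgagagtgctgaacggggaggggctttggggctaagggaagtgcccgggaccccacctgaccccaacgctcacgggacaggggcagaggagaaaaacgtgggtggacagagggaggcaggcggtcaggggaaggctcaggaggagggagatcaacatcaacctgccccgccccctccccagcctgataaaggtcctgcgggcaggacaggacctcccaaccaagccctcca
APOC2: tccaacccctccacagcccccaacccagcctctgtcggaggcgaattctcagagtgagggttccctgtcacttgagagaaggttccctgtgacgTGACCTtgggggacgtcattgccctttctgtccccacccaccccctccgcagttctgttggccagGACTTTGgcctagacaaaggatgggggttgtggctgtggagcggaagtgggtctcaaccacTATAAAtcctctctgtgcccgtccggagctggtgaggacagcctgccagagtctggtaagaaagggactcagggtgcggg
APOA5: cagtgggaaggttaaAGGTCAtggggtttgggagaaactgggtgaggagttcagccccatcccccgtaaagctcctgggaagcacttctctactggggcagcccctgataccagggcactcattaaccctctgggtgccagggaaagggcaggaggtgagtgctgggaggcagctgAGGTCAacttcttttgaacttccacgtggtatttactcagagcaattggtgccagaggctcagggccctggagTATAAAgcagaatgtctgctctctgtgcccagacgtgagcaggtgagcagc
Of the motifs searched on both strands, 3 are reported. The core promoter element is TATAAA. The single repeat unit bound by many nuclear receptors is AGGTCA. The core of an HNF4-type element is CAAAGTC. The APOC2 window held TATAAA beginning at base -30 from the start, CAAAGTC on the reverse strand at -91 and AGGTCA on the reverse strand at -156. The APOA5 window shown held TATAAA at -1 and AGGTCA at -74 and at -235. The other APOA5 window, not shown, held AGGTCA at -156. No match overlapped another. The APOE and APOC1 windows held none of the 3, and neither did those of APOA2, APOH and APOM. Among all 34943 windows of the table, 11.6% held TATAAA, 13.8% held AGGTCA and 3.37% held CAAAGTC. A match is a description of the letters in the window and not a binding site, and abundant and scarce members were found both with and without matches.

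The values are TPM as deposited, a transcript abundance scaled for length and for the library total, 1 column per sample, and they keep no read depth. CENPU was listed at 0.17, 0.11 and 0.45 TPM in Huh-7 si-CENPU, against 0.56, 0.84 and 0.53 TPM in Huh-7 si-NC. In MHCC-97H it was at 0.22, 0.45 and 0.24 TPM with si-CENPU and at 1.17, 0.83 and 0.89 TPM with si-NC. The groups did not overlap in either line, and the exact two-sided permutation test gave p = 0.1 in each, the smallest p that 3 against 3 allows, and 0.16 after adjustment over 16 tests. CENPU was below the filter used for limma. Fitted without the filter, it had a difference of -0.41 (Huh-7) and -0.59 (MHCC-97H), neither of them called (limma adjusted p = 0.955 and 0.537). One library, Huh-7 si-NC replicate 1, correlated less with the other Huh-7 libraries (mean r = 0.965 across tested genes, which are not independent replicates) than any other did (up to 0.978). Hepatocyte markers were present in Huh-7, where the 12 genes summed to between 5318 and 6879 TPM, and nearly absent in MHCC-97H, where they summed to between 9.82 and 13.5 TPM although both are described as hepatoma lines. Enterocyte markers (8 genes), from the other tissue that makes apolipoproteins, summed to 40.7 to 56.6 TPM in Huh-7 and 74.9 to 95.8 TPM in MHCC-97H, although 3 of the 4 tested were called higher in Huh-7 in both treatments and 1 lower. Endothelial markers (5 genes) summed to at most 0.68 TPM in any library. Of 28 genes that dividing cells use, chosen after their values were seen, PCNA, CDK1, MCM2, MCM6 and SDHA averaged under 0.5 TPM in Huh-7 and none did in MHCC-97H. A value near 0 in a Huh-7 library was therefore read as a listed value and not as absence of the transcript.

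Huh-7 cells carried a large apolipoprotein output and MHCC-97H cells very little. Together the 10 genes made up 1.01% to 1.15% of all TPM in the 6 Huh-7 libraries and at most 0.00107% in the 6 MHCC-97H libraries. The output of Huh-7 was uneven. APOE and APOA1 ranked 45th and 50th by mean level among all genes in Huh-7 si-CENPU, and 42nd and 46th in Huh-7 si-NC. APOC2, APOC3 and APOM ranked between 220th and 394th in those 2 groups, while APOB, APOH, APOA5, APOA2 and APOC1 stood far lower. TPM is scaled for transcript length, so listed levels of different genes can be set side by side. Some genes that dividing cells use were listed near 0 in Huh-7, so the listed order may not be that of true levels. In order of mean level, APOE and APOA1 overlapped each other in both Huh-7 groups, as did APOC2 and APOC3. APOB and APOH overlapped in Huh-7 si-NC only, and every other pair of neighbours in that order was separate, so 2 of 9 pairs overlapped with si-CENPU and 3 of 9 with si-NC. In MHCC-97H, APOM led the order alone and 8 of 9 neighbouring pairs overlapped in each group.

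**Figure D1:**
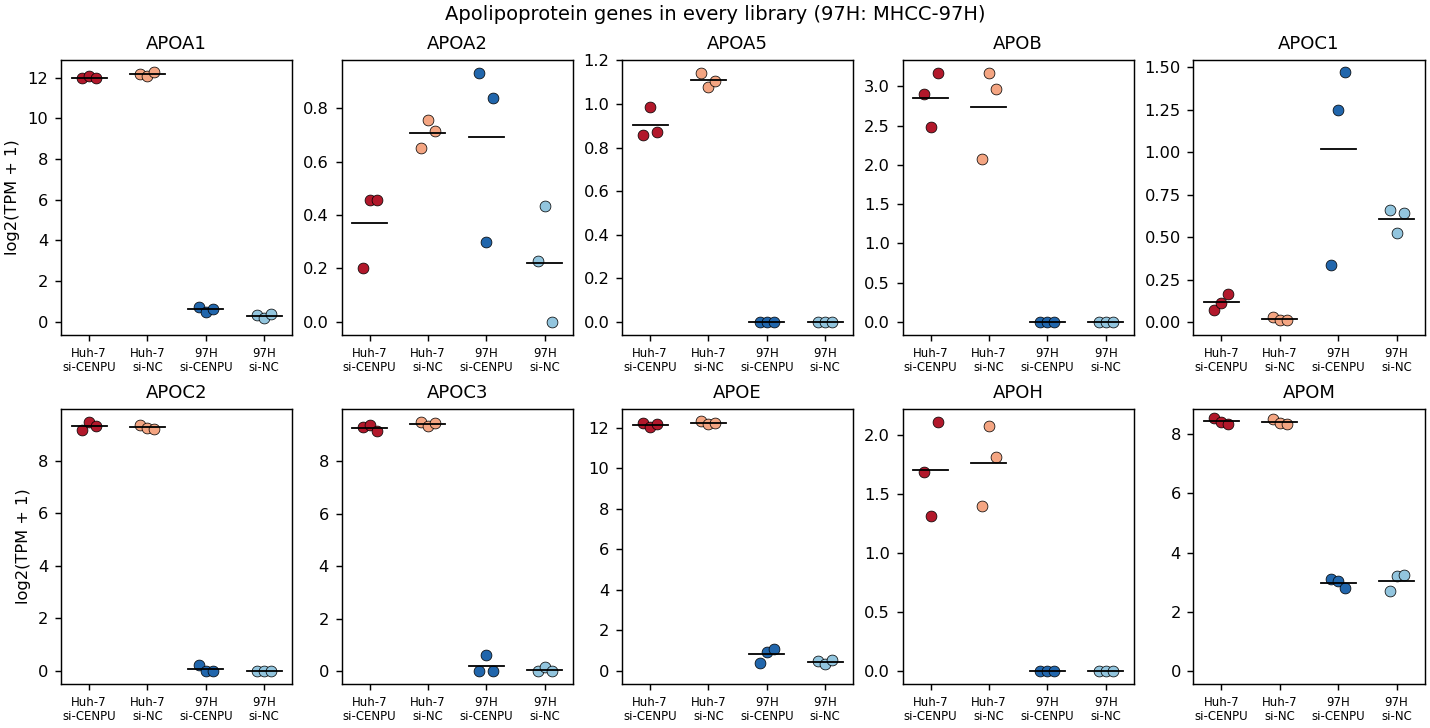
Level of each apolipoprotein gene as log2(TPM + 1), 1 point per library and a bar at the mean of 3 libraries, for Huh-7 si-CENPU, Huh-7 si-NC, MHCC-97H si-CENPU and MHCC-97H si-NC from left to right; the vertical scale differs between panels. APOE and APOA1 average 4088 to 4840 TPM in Huh-7 and below 1 TPM in MHCC-97H, while APOC1 is lower in Huh-7 in both treatments.

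Among the high-density lipoprotein proteins, APOA1 was listed at 3994, 4266 and 4005 TPM in Huh-7 si-CENPU and at 0.64, 0.42 and 0.58 TPM in MHCC-97H si-CENPU. With si-NC it was at 4647, 4323 and 4887 TPM in Huh-7 and at 0.25, 0.15 and 0.29 TPM in MHCC-97H. Every Huh-7 library lay above every MHCC-97H library. The ratio of mean TPM was 7479 with si-CENPU and 20083 with si-NC, and both rest on MHCC-97H means below 1 TPM. On the log2(TPM + 1) scale the difference was 11.37 with si-CENPU and 11.87 with si-NC (SE 0.0843 each, limma adjusted p = 2.0e-15 and 1.4e-15). APOA1 passed the filter on mean TPM only through Huh-7, so the direction of these calls was bound up with the filter. APOM was the one member with a clear level in both lines: 374, 339 and 327 TPM in Huh-7 si-CENPU against 7.58, 7.19 and 6.04 TPM in MHCC-97H si-CENPU. In si-NC libraries it was at 361, 335 and 327 TPM in Huh-7 and at 5.48, 8.28 and 8.38 TPM in MHCC-97H. Its ratio of means was 50 with si-CENPU and 46.2 with si-NC, and the limma differences were 5.46 and 5.37 (SE 0.140, adjusted p = 1.9e-11 and 2.2e-11). APOM overlaps BAG6 on the opposite strand by 290 bases. BAG6 was listed at no more than 48.3 TPM in Huh-7 and 47.1 TPM in MHCC-97H. APOA2, the second protein of high-density lipoprotein, stayed below 1 TPM in every library. It was at 0.15, 0.37 and 0.37 TPM in Huh-7 si-CENPU against 0.91, 0.23 and 0.79 TPM in MHCC-97H si-CENPU, where the groups overlapped. With si-NC it was at 0.57, 0.69 and 0.64 TPM in Huh-7 against 0.17, 0.35 and 0 TPM in MHCC-97H, where Huh-7 lay above.

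Among the regulators of triglyceride hydrolysis, APOC2 and APOC3 were abundant in Huh-7 and APOA5 was not. APOC2, the lipase cofactor, was listed at 579, 716 and 646 TPM in Huh-7 si-CENPU, and in MHCC-97H si-CENPU at 0.17 TPM in 1 library and at 0 in the other two. Its Huh-7 si-NC values were 652, 604 and 588 TPM, and all MHCC-97H si-NC libraries were at 0. APOC3, its opponent, was at 625, 656 and 571 TPM in Huh-7 si-CENPU, against 0, 0.52 and 0 TPM in MHCC-97H si-CENPU. In si-NC libraries APOC3 was at 724, 637 and 696 TPM in Huh-7 and at 0, 0.11 and 0 TPM in MHCC-97H. Both genes were thus at similar levels in Huh-7 and close to 0 in MHCC-97H. The limma differences between the lines were 9.26 in both treatments for APOC2 (SE 0.102), and for APOC3 9.07 with si-CENPU and 9.37 with si-NC (SE 0.151). All 4 adjusted p-values were at or below 4.5e-13. APOC2 and APOC3 passed the filter on mean TPM only through Huh-7, so the direction of these calls was bound up with the filter. APOC2 shares its 3584 bases with the readthrough gene APOC4-APOC2, which was listed at 77.2, 91.2 and 84.8 TPM in Huh-7 si-CENPU and at 76.6, 77.6 and 78.7 TPM in Huh-7 si-NC. APOC2 held 88.2% to 89.5% of the sum of the pair in the 6 Huh-7 libraries, and no source used here says how reads were divided between them. APOA5 was far lower: 0.81, 0.98 and 0.83 TPM in Huh-7 si-CENPU, 1.21, 1.11 and 1.15 TPM in Huh-7 si-NC, with 0 in all 6 MHCC-97H libraries.

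APOE, the receptor ligand, had the highest mean of the members in both Huh-7 groups, though its values overlapped those of APOA1. It was listed at 4751, 4124 and 4611 TPM in Huh-7 si-CENPU against 0.33, 0.93 and 1.16 TPM in MHCC-97H si-CENPU. With si-NC the values were 5098, 4652 and 4771 TPM in Huh-7 against 0.42, 0.28 and 0.45 TPM in MHCC-97H. The lines did not overlap. The ratios of means were 5573 with si-CENPU and 12626 with si-NC, and the limma differences were 11.31 and 11.77 (SE 0.151, adjusted p = 8.4e-14 and 6.0e-14). APOE too passed the filter on mean TPM only through Huh-7, which bound the direction of these calls to the filter. APOC1, which lies downstream of APOE and slows the uptake of APOE-bearing particles, ran the other way. It was at 0.05, 0.08 and 0.12 TPM in Huh-7 si-CENPU against 0.26, 1.38 and 1.77 TPM in MHCC-97H si-CENPU. With si-NC it was at 0.02, 0.01 and 0.01 TPM in Huh-7 against 0.58, 0.44 and 0.56 TPM in MHCC-97H. Every Huh-7 library lay below every MHCC-97H library, at levels too low for the filter on mean TPM. A copy of the gene, the pseudogene APOC1P1, was listed at 27.8, 25.7 and 27.2 TPM in Huh-7 si-CENPU, at 23.7, 14.5 and 25.6 TPM in Huh-7 si-NC, with 0 in every MHCC-97H library. Its annotated transcript matches that of APOC1 at 375 of 427 aligned bases (87.8%). How reads were divided between the 2 copies is unknown, and the APOC1 levels are uncertain for that reason.

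APOB, the scaffold of very-low-density lipoprotein, was listed at 6.46, 4.59 and 8.03 TPM in Huh-7 si-CENPU and 3.21, 8.04 and 6.81 TPM in Huh-7 si-NC, with 0 in all 6 MHCC-97H libraries. APOH followed it at 2.21, 1.49 and 3.32 TPM in Huh-7 si-CENPU and 1.64, 3.22 and 2.51 TPM in Huh-7 si-NC, also with 0 in all MHCC-97H libraries. Their values overlapped between si-CENPU and si-NC, and both genes were called higher in Huh-7 by limma. Both passed the filter on mean TPM only through Huh-7, so the direction of these calls was bound up with the filter. The spread behind each SE was shared with MHCC-97H libraries that were all at 0. For APOB the difference was 2.85 with si-CENPU and 2.74 with si-NC (SE 0.258, adjusted p = 1.5e-06 and 2.1e-06). For APOH it was 1.70 and 1.76 (SE 0.212, adjusted p = 2.3e-05 and 1.7e-05).

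Over the whole set, 7 of 10 genes reached the filter, a mean of at least 1 TPM over the 12 samples: APOA1, APOB, APOC2, APOC3, APOE, APOH and APOM. Other than APOM they passed only through Huh-7, so their higher level there was bound up with the filter. All 7 were called higher in Huh-7 in both treatments. Of the 11088 genes tested, 23.9% were called higher and 46.2% lower in Huh-7 with si-CENPU, and 22.9% higher and 50.1% lower with si-NC. Without the filter, all 10 members could be counted among 30267 genes. With si-CENPU 8 were called higher in Huh-7, APOC1 was called lower (limma adjusted p = 0.0107) and APOA2 was not called (adjusted p = 0.196), against 14% of all genes called higher and 22.1% called lower. With si-NC 9 were called higher, APOA2 just past the threshold (adjusted p = 0.048), and APOC1 was not called (adjusted p = 0.0706), against 13.5% called higher and 24.6% called lower. By non-overlap alone, 8 members lay above and 1 below with si-CENPU, and 9 above and 1 below with si-NC. Among genes above 0 TPM in any of the 6 libraries, 19% lay above and 30.1% below with si-CENPU, and 17.2% above and 30.1% below with si-NC. In either direction, 70.1% of tested genes were called with si-CENPU and 73% with si-NC, and 36.1% and 38.2% without the filter. The median difference of all tested genes was -0.40 with si-CENPU and -0.49 with si-NC. With trimmed-mean scaling those medians were 0.02 and 0.01, and the share of higher calls was 52.1% and 51.7%, against 34.1% and 31.4% as deposited. The 7 tested members were called higher under every scaling tried, which for all but APOM was bound up with the filter. Calls in the marker lists are given beside them. In both treatments 12 of 12 hepatocyte markers were called higher in Huh-7. So were 3 of 4 tested enterocyte, 2 of 3 cholangiocyte and 2 of 3 macrophage and leukocyte markers. In each of these 3 lists 1 was lower. All 12 hepatocyte markers averaged at least 1 TPM in each Huh-7 group, but only 1 did in each MHCC-97H group. Nearly all therefore passed the filter only through Huh-7, which bound their direction to the filter. Of 8 enterocyte markers, 4 averaged at least 1 TPM in each Huh-7 group, against 1 (si-CENPU) and 2 (si-NC) in MHCC-97H. Cholangiocyte markers summed to 186 to 220 TPM in Huh-7 and 512 to 596 TPM in MHCC-97H, and macrophage and leukocyte markers to 39.0 to 49.9 TPM and 55.6 to 67.4 TPM. The part of these lists in the apolipoprotein difference was not tested. In bulk samples, fewer cells of a type and less RNA per cell cannot be told apart.

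Neighbours within a gene cluster stood at very different levels. On chromosome 11, APOA5 (chr11:116789367-116792420), APOA4 (chr11:116820700-116823306), APOC3 (chr11:116829706-116833072) and APOA1 (chr11:116835751-116837950) span 48.6 kb of GRCh38, with coordinates from GENCODE 29. The Huh-7 si-CENPU means along it were 0.873, 2.84, 617 and 4088 TPM, and the Huh-7 si-NC means were 1.16, 3.06, 686 and 4619 TPM. All 4 genes of the cluster thus had a higher value in Huh-7 than in MHCC-97H, but they ranged over more than 3 orders of magnitude in Huh-7. The chromosome 19 cluster spans 43.8 kb and holds APOE (chr19:44905754-44909393), APOC1 (chr19:44914247-44919349), APOC1P1, APOC4, APOC4-APOC2 and APOC2 (chr19:44945982-44949565). APOC4 was listed at 0 in all 12 libraries. APOE and APOC2, at its ends, were abundant in Huh-7, with APOC1 and APOC4 between them near or at 0. Between them also lie APOC1P1, at 26.9 TPM on average in Huh-7 si-CENPU against 21.3 TPM in Huh-7 si-NC, besides the readthrough gene APOC4-APOC2, at 84.4 TPM against 77.6 TPM. How reads were assigned among these genes is unknown, and the low values of APOC1 and APOC4 are uncertain. Besides BAG6 and the readthrough gene, the annotation places APOA1-AS over APOA1, AC010872.1 over APOB, and AC011481.3 over APOE and APOC1. None of these exceeded 0.6 TPM in Huh-7 or 0.11 TPM in MHCC-97H. The other members lie alone: APOA2 at chr1:161222292-161223631, APOB at chr2:21001429-21044073, APOM at chr6:31652416-31658210 and APOH at chr17:66212033-66256525.

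**Figure D2:**
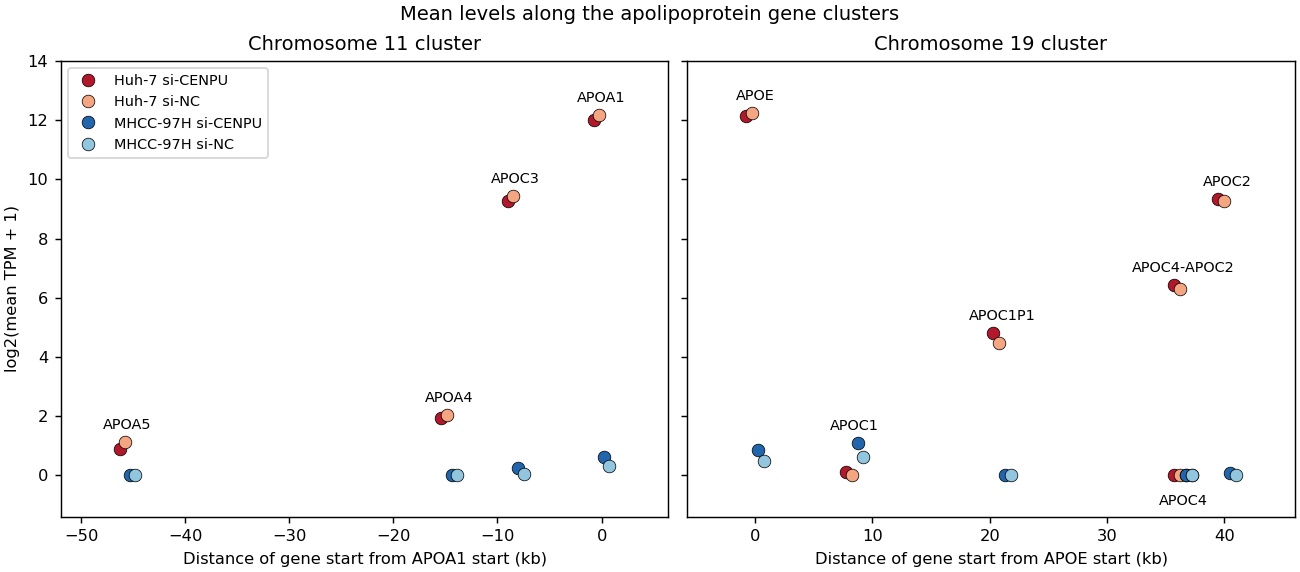
Mean level as log2(mean TPM + 1) of each gene of the chromosome 11 and chromosome 19 clusters in the 4 groups, against the distance of its start from that of APOA1 or APOE in kilobases; points of the groups are shifted slightly sideways. In Huh-7 the levels run from 0.873 TPM for APOA5 to 4088 TPM for APOA1 with si-CENPU on chromosome 11, and APOC1 and APOC4 lie near 0 between APOE and APOC2 on chromosome 19.

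After si-CENPU, no member was called in either line. In Huh-7, 0 of the 7 tested members were called by limma, against 1 of 11088 genes (0.00902%), and 507 genes (4.57%) but none of the 7 had an unadjusted p below 0.05. For APOA1, the si-CENPU values of 3994 to 4266 TPM lay just below the si-NC values of 4323 to 4887 TPM. Its mean was 11.5% lower (4088 ± 154 TPM with si-CENPU and 4619 ± 283 TPM with si-NC, SD, n = 3 each). The limma difference was -0.17 on the log2 scale (95% interval -0.36 to 0.01, adjusted p = 1). APOE averaged 4496 ± 329 TPM with si-CENPU and 4840 ± 231 TPM with si-NC, a difference of -0.11 (-0.44 to 0.22). For APOC3 the means were 617 ± 43.1 and 686 ± 44.2 TPM, a difference of -0.15 (-0.48 to 0.18). APOC2 had means of 647 ± 68.7 TPM with si-CENPU and 615 ± 33.2 TPM with si-NC, a difference of 0.07 (-0.15 to 0.29), and APOM 347 ± 24.7 and 341 ± 17.8 TPM, a difference of 0.02 (-0.29 to 0.33). The values of these 4 genes overlapped between si-CENPU and si-NC. The intervals of these 5 abundant members reached no lower than -0.48 and no higher than 0.33. They rest on a spread per gene that the fit shares with the MHCC-97H libraries, and not on Huh-7 alone.

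APOB and APOH gave wider intervals in Huh-7. The log2 difference was 0.11 for APOB (-0.46 to 0.68) and -0.06 for APOH (-0.53 to 0.41), both with limma adjusted p = 1. The fit shares 1 spread per gene over all 4 groups. Both genes were at 0 in every MHCC-97H library, so these intervals are too narrow for Huh-7 alone. APOA5 and APOA2 lay below their si-NC values in all 3 si-CENPU libraries, with ratios of means of 0.755 and 0.468, and APOC1 lay above its si-NC values with a ratio of 6.25 between means of 0.0833 and 0.0133 TPM. The exact two-sided permutation test gave p = 0.1 for each of the 3 genes, the smallest possible, and 0.16 after adjustment over 16 tests. Without the filter, limma gave adjusted p = 1 for all 3 genes, against 0.0132% of all genes called. In that fit 2 of the 10 members had an unadjusted p below 0.05, against 4.3% of all genes. Counting non-overlap, 3 of 10 members lay below (APOA1, APOA2 and APOA5) and 1 above (APOC1), against 2.66% of genes above 0 TPM that lay below and 3.06% that lay above.

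In MHCC-97H, where all members but APOM were at or near 0, 0 of the 7 tested members were called, against 1 of 11088 genes (0.00902%). An unadjusted p below 0.05 was reached by 2 of the 7, APOA1 and APOE, and by 379 genes (3.42%). Without the filter 0 of 10 members were called, against 0.0231% of all genes, and 3 of 10 had an unadjusted p below 0.05, against 4.31%. APOA1 was listed at 0.64, 0.42 and 0.58 TPM with si-CENPU and at 0.25, 0.15 and 0.29 TPM with si-NC, and these groups did not overlap. Its difference was 0.33 (0.14 to 0.52), with an unadjusted limma p of 0.00246 and an adjusted p of 0.740. APOE was at 0.33, 0.93 and 1.16 TPM with si-CENPU against 0.42, 0.28 and 0.45 TPM with si-NC, a difference of 0.36 (0.02 to 0.69, unadjusted p = 0.0374, limma adjusted p = 1). Replicate 1 of si-CENPU lay within the si-NC values. APOC1 showed the same shape, with 0.26, 1.38 and 1.77 TPM with si-CENPU against 0.58, 0.44 and 0.56 TPM with si-NC (exact permutation p = 0.4). The difference for APOM was -0.06 (-0.37 to 0.25), and APOB, APOH and APOA5 were at 0 throughout. By non-overlap APOA1 was the single member above and none lay below, against 2.47% of genes above and 3.18% below. For the difference of response between the lines, 0 of 7 tested members were called, against 1 of 11088 genes (0.00902%), and 3.45% of genes had an unadjusted p below 0.05. Without the filter 0 of 10 members were called, against 0.0198% of all genes, and 2 of 10 had an unadjusted p below 0.05, against 3.41%. APOA1 had the smallest p among the tested members, with a difference of -0.50 (-0.77 to -0.24, unadjusted p = 0.00142, limma adjusted p = 0.999). It joins a lower mean in Huh-7, where the gene is abundant, with a higher mean in MHCC-97H, where it is below 1 TPM.

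**Figure D3:**
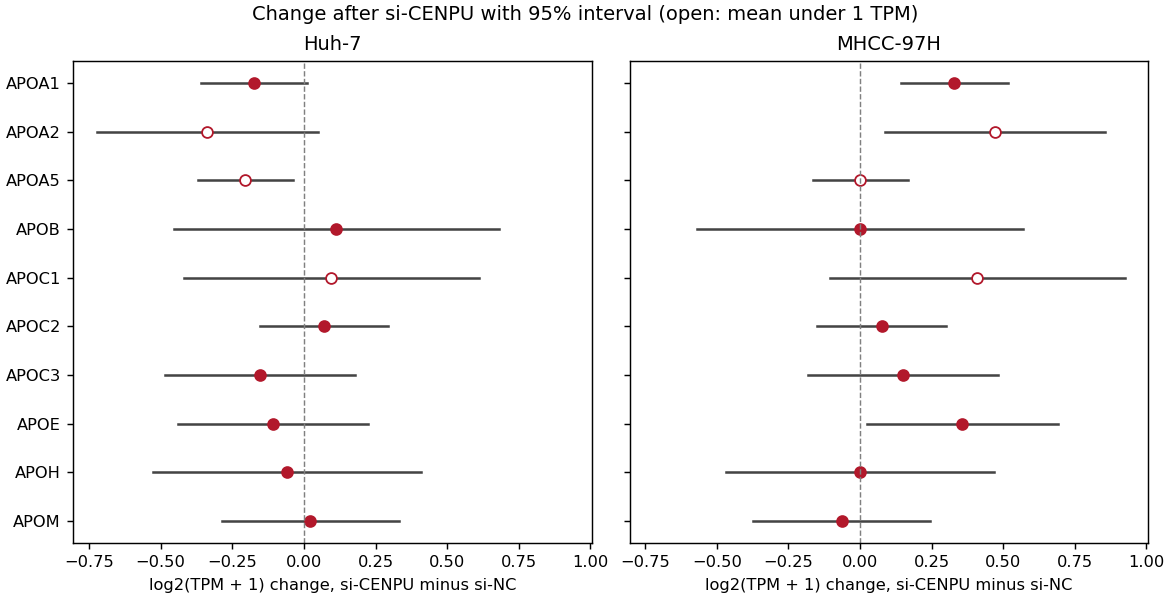
Difference of each apolipoprotein gene in log2(TPM + 1), si-CENPU minus si-NC, in Huh-7 (left) and MHCC-97H (right), with 95% intervals from limma; filled points are the 7 genes above the filter, open points the 3 below it, from the fit without a filter. No member passed an adjusted p of 0.05 in either line, and APOA1 lies at -0.17 in Huh-7 and at 0.33 in MHCC-97H. The intervals use a spread per gene shared over all groups of both lines.

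Within Huh-7, APOB and APOH varied most among the libraries of a group. Deviations from the group mean stayed within 0.17 on the log2(TPM + 1) scale in every library for the other 8 members, a scale on which APOA2 and APOC1, far below 1 TPM, can move little. APOB deviated by -0.66 in si-NC replicate 1 and by -0.37 in si-CENPU replicate 2, and by up to 0.44 in the other libraries. APOH deviated by -0.36 in si-NC replicate 1 and by -0.39 in si-CENPU replicate 2, and by up to 0.41 in the other libraries. MTTP, the partner of APOB in lipid loading, had deviations of -0.66 and -0.36 in those 2 libraries, and albumin (ALB) had -0.59 and -0.45. These 2 genes were chosen after their values were seen. The same 2 libraries had the lowest share of mitochondrially encoded transcripts, 2.28% in si-CENPU replicate 2 and 1.56% in si-NC replicate 1, against 2.87% to 3.50% in the other 4. The longest annotated transcripts of APOB and APOH are also the 2 poorest in G and C, at 43.5% and 42.9%, against 50.6% to 68.5% for the other members. Whether library quality or base composition has a part in this was not tested. Without si-NC replicate 1 the si-CENPU difference of APOB was -0.22, and without si-CENPU replicate 2 that of APOH was 0.13, neither of them called. As for proportions among abundant members, APOE over APOA1 was between 0.967 and 1.19 in si-CENPU libraries and between 0.976 and 1.10 in si-NC libraries, and APOA1 over APOC3 between 6.39 and 7.02 in si-CENPU and between 6.42 and 7.02 in si-NC libraries. APOC3 over APOC2 was between 0.883 and 1.08 in si-CENPU and between 1.06 and 1.18 in si-NC libraries, which overlap.

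**Figure D4:**
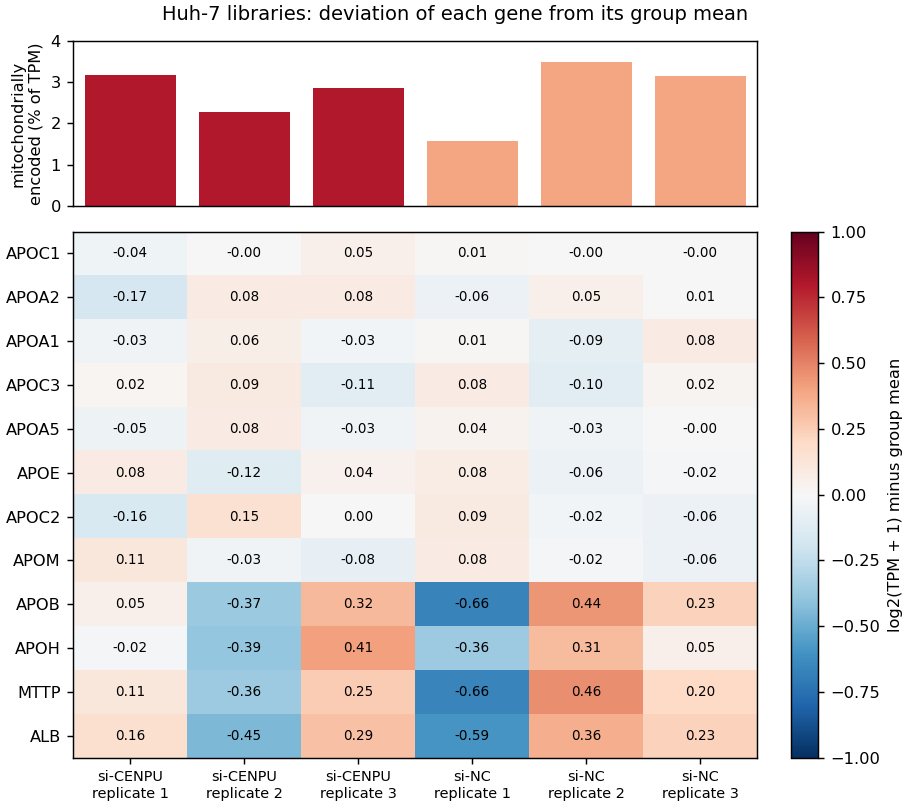
Deviation of the 10 apolipoprotein genes, MTTP and ALB from their group mean in log2(TPM + 1) in the 3 si-CENPU and 3 si-NC libraries of Huh-7 (colour and number, lower panel), under bars for the percent of TPM from mitochondrially encoded genes. APOB, APOH, MTTP and ALB are lowest in si-NC replicate 1 and si-CENPU replicate 2, the libraries with 1.56% and 2.28% mitochondrially encoded transcripts.

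Calls in the rest of the lipoprotein pathway went in both directions between the lines. Counts here are of genes called at an adjusted p below 0.05 by limma, and the lists were described and not tested. They stand beside 23.9% of all tested genes called higher and 46.2% lower in Huh-7 with si-CENPU, and 22.9% higher and 50.1% lower with si-NC. Genes at 0 in MHCC-97H, such as MTTP, entered these counts only through Huh-7. Among other apolipoproteins and lipoprotein-bound proteins, 7 of 16 genes were tested. With si-CENPU 4 were higher and 2 lower in Huh-7, and with si-NC 4 were higher and 3 lower. The genes SAA4, SAA1 and SAA2 led them. SAA4 was at 71.4 to 110 TPM in Huh-7 si-CENPU and 76.9 to 86.2 TPM in Huh-7 si-NC, but 0 in every MHCC-97H library. SAA1 differed by 4.72 with si-NC and SAA2 by 4.52, but these are close copies of each other and their separate levels are uncertain. APOA4 differed by 2.01, and APOL1, which runs in the opposite direction, by -1.55.

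Assembly and secretion genes fell on both sides, with 10 higher and 7 lower of 20 tested in both treatments. CES1, a triglyceride hydrolase, differed by 5.14 with si-NC, TM6SF2, which promotes lipidation of very-low-density lipoprotein, by 3.79 and SOAT2, which esterifies cholesterol, by 3.26. MTTP was at 2.86, 1.78 and 3.25 TPM in Huh-7 si-CENPU, at 1.02, 3.41 and 2.67 TPM in Huh-7 si-NC, but 0 in every MHCC-97H library. TANGO2 was lower in Huh-7, by 1.55 on the log2 scale, as was the vesicle-coat GTPase SAR1A, by 1.61. Receptors and their regulators split as well, 6 higher and 5 lower of 15 in both treatments. The high-density lipoprotein receptor SCARB1 was at 0 in all Huh-7 si-CENPU libraries, against 56.7, 57.0 and 50.1 TPM in MHCC-97H si-CENPU. With si-NC it was at 0, 0.10 and 0 TPM in Huh-7 and at 56.0, 61.0 and 55.0 TPM in MHCC-97H. SCARB1 was thus listed well above 0 in the line where its ligand gene APOA1 was nearly absent. Like those of PCNA and SDHA, its Huh-7 values at or near 0 were read as listed values and not as absence. AMN, a subunit of the cubilin receptor that takes up APOA1, differed by 4.71 and the heparan sulfate proteoglycan SDC1 by 4.09 in the direction of Huh-7. LRP8, a receptor that binds APOE, differed by -2.52.

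Lipases and transfer proteins had 7 higher and 4 lower of 12 tested with si-CENPU, and 5 higher and 4 lower with si-NC. Hepatic lipase (LIPC) differed by 3.92 with si-NC and phospholipid transfer protein (PLTP) by 3.47. Lipoprotein lipase (LPL), the enzyme that APOC2 activates, ran the other way at -1.86. Among the transcription factors known to act on apolipoprotein genes, 12 were higher and 8 lower of 25 with si-CENPU, and 13 higher and 9 lower with si-NC. NR0B2 differed by 5.01 with si-NC, FOXA3 by 4.90 and CEBPA by 3.79. HNF4A, named here after its values were seen, was at 11.4, 9.34 and 11.9 TPM in Huh-7 si-CENPU against 0.42, 0.82 and 0.56 TPM in MHCC-97H si-CENPU, and at 8.44, 12.2 and 12.3 TPM in Huh-7 si-NC against 0.70, 0.58 and 0.37 TPM in MHCC-97H si-NC. The nuclear receptor NR1D1, a repressor, was lower in Huh-7 with a difference of -2.87. With si-NC the median difference was 2.01 in the list of other apolipoproteins, 0.30 in assembly, 0.19 in receptors, 0.50 in lipases and transfer proteins and 0.32 in transcription factors, beside -0.49 over all tested genes.

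**Figure D5:**
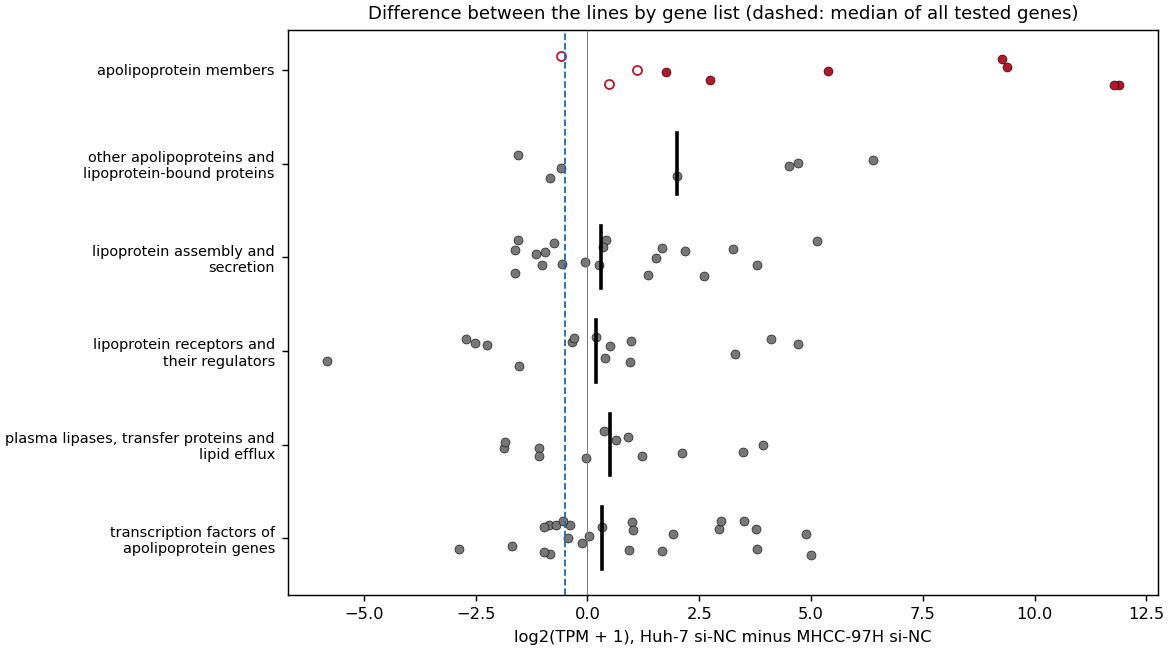
Difference between the lines in log2(TPM + 1), Huh-7 si-NC minus MHCC-97H si-NC, for each gene of the apolipoprotein set (top row; open points are the 3 genes below the filter) and of 5 lists of the lipoprotein pathway; black bars are list medians over tested genes, and the dashed line is the median of all tested genes at -0.49. The apolipoprotein points reach from -0.59 for APOC1 to 11.87 for APOA1, while the other lists spread to both sides of 0.

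After si-CENPU no gene of the 5 pathway lists was called in either line, again against 0.00902% of all tested genes, and 5 of 79 genes in Huh-7 and 1 of 79 in MHCC-97H had an unadjusted p below 0.05, against 4.57% and 3.42% of all tested genes. The smallest p belonged to NR1H3 (LXR-alpha), the oxysterol receptor known to act on APOE and its cluster. It was listed at 1.5, 1.24 and 1.41 TPM in Huh-7 si-CENPU and at 3.35, 7.20 and 7.52 TPM in Huh-7 si-NC, without overlap. The difference was -1.5 (95% interval -2.0 to -1.0), with an unadjusted limma p of 3.8e-05 and an adjusted p of 0.211. Of 23 alternatives, 4 called NR1H3 and 19 did not. The 4 were a pseudocount of 0.1 (limma adjusted p = 0.0200), trimmed-mean scaling (0.00495), quantile normalization (0.0154) and leaving out Huh-7 si-NC replicate 1 (0.000727). In MHCC-97H, NR1H3 was at 12.58, 15.8 and 12.99 TPM with si-CENPU against 11.56, 14.22 and 11.14 TPM with si-NC. The difference of response between the lines was -1.65 (-2.35 to -0.95, limma adjusted p = 0.873). It passed in 2 of 22 alternatives, with trimmed-mean scaling (0.0398) and without Huh-7 si-NC replicate 1 (0.00531). No apolipoprotein member was called in Huh-7 under any of these settings. CETP exchanges cholesteryl ester between lipoproteins. It was at 12.5, 5.23 and 6.70 TPM in Huh-7 si-CENPU and at 0, 0 and 6.15 TPM in Huh-7 si-NC (limma adjusted p = 0.828). Of 22 alternatives, 1 called CETP, the one without Huh-7 si-NC replicate 3 (limma adjusted p = 0.00190). The differences of TM6SF2 (-0.25) and AMN (-0.24) in Huh-7 and of ABCA7, a lipid exporter, in MHCC-97H (-0.31) had adjusted p = 1.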

How the data were processed

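RNA was sequenced from 12 samples in 4 groups of 3. The authors deposited 1 table of TPM per Ensembl gene. HISAT2, StringTie and GRCh38.p13 are named, without versions, in the submitters' processing notes. Per the labels' protocols libraries came from an Illumina TruSeq kit. No source used here gives the annotation, strand setting or read division between overlapping genes. TPM keeps no depth, which is unknown here, and the precision is that of 3 samples a group.

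From the TPM values, log2(TPM + 1) was fitted with limma 3.58.1 in R 4.3.3: 1 mean per group, genes with a mean of at least 1 TPM (11088), a variance trend, two-sided p adjusted by Benjamini-Hochberg over all tested genes within each of 5 contrasts, threshold 0.05. All 4 groups shared 1 estimate of the spread per gene. Fold changes on this scale understate low genes. Members below the filter and CENPU got exact permutation tests. The fit was tested on simulated data. Symbols matched 60447 of 60664 identifiers. Coordinates come from GENCODE 29, promoters from RefSeq. All members, the target gene and, per list and contrast, up to 4 genes of smallest p and up to 2 of largest change each way were named, plus genes overlapping members, and not all are printed; some items are withheld and not reported here. Members and lists were chosen with earlier results of these data known. Alternatives were other pseudocounts, filters and scalings, a replicate block, no trend, only the groups compared, and each library left out. Groups came from the treatment and line labels. Source labels read tumour tissue while the line label and title name cell lines; the line label and title were used.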

Additional observations from a re-analysis of the deposited data

How the results depend on the processing

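In the si-CENPU contrasts no member was called under any alternative tried. The number of all genes called, 1 as reported in each, was small and unsteady. In Huh-7 it was 11 with a pseudocount of 0.1, 4 without a filter, 0 with a mean of at least 5 TPM, 3 with trimmed-mean scaling, 3 with quantile normalization, 0 with only the groups compared, and 0 to 4 when 1 library was left out. In MHCC-97H it was 0 with a pseudocount of 0.1, 7 without a filter, 3 with trimmed-mean scaling, 7 with quantile normalization, 0 without a variance trend, 0 with only the groups compared, and 0 to 4 when 1 library was left out. For the difference of responses it was 0 with a pseudocount of 0.1 or 0.5, 6 without a filter, 0 with at least 5 TPM, 2 with trimmed-mean scaling, and 0 to 4 when 1 library was left out. The sign of the APOM change, near 0, turned: in Huh-7 to -0.00882 with trimmed-mean scaling, -0.027 with quantile normalization and -0.00197 when rescaled without mitochondrial and the 100 most abundant genes; in MHCC-97H to 0.00321 and 0.0161, and for the difference of responses to -0.012 and -0.0431, with the first 2. When 1 library was left out, small differences also turned sign without a call: in Huh-7 APOB ranged from -0.219 to 0.333, APOH from -0.264 to 0.134, APOC2 from -0.00622 to 0.147 and APOM from -0.034 to 0.0642, and in MHCC-97H APOC3 from -0.0502 to 0.252 and APOM from -0.238 to 0.0284. For the difference of responses the ranges were those of Huh-7 for APOB and APOH, -0.0817 to 0.0716 for APOC2 and -0.00578 to 0.261 for APOM. The cause was not tested. Between the lines, the 7 members above the filter stayed higher in Huh-7 under every alternative that tested them. For all but APOM this was bound up with the filter, which they passed only through Huh-7. Without a filter APOC1 was lower in both treatments but called only with si-CENPU, and APOA2 was lower with si-CENPU but not called. With at least 5 TPM, 4282 genes were called with si-CENPU and 4405 with si-NC, of fewer tested. Replicate numbers did not pair the samples (correlations of same-numbered deviations -0.09 to 0.13), and with the replicate block 0 genes were called in MHCC-97H and 0 for the difference of responses. Not every sample correlated best with its own number. Unknown depth limits all values near 0.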
